A study of Drosophila melanogaster with 7 samples.

Results

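The nuclear-encoded subunits of the mitochondrial respiratory chain were examined in RNA of 7 primary neuron cultures of Drosophila melanogaster. All 7 cultures belonged to 1 control condition of the genotype w1118 (per the study's methods, cells dissociated from the pooled central nervous systems of third-instar larvae, a mixture of neurons and other cells), so no comparison between groups was possible. The authors deposited whole-number read counts per gene, labelled as from total RNA, while the methods name a stranded mRNA kit. The genes were chosen by name, as the protein-coding genes whose FlyBase symbol begins with ND-, UQCR-, COX or ATPsyn, and 80 of the 17753 genes listed met this rule. Of these, 40 carry an ND- symbol (complex I), 9 a UQCR- symbol (complex III), 16 a COX symbol (complex IV) and 15 an ATPsyn symbol (complex V).

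Oxidative phosphorylation passes electrons from NADH through complex I, and from succinate through complex II, to ubiquinone. Complex III then hands them to cytochrome c and complex IV to oxygen, while protons are pumped across the inner mitochondrial membrane. Complex V, the ATP synthase, uses the proton gradient to make ATP, on which synaptic transmission and axonal transport draw heavily. Complexes I, III, IV and V are built from subunits of both genomes: a few catalytic membrane subunits are encoded in mitochondrial DNA, and the rest are nuclear genes whose proteins are imported. In Drosophila many of the nuclear genes have a second copy, usually marked by an L for "like" in the symbol, and several such copies are known for expression in the testis.

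Which numbered replicate a column holds is not shown, and each culture is therefore named by the leading digits of its total, from culture 21.2 (21178515 counts) through 25.1, 25.7, 26.8, 28.5 and 28.6 to culture 33.9 (33891136 counts). No library was a copy of another, since chi-square divided by its degrees of freedom lay between 18.7 and 74.1 over the 21 library pairs. The 5 neuronal markers elav, nSyb, brp, Syt1 and Syn summed to 2111 to 2515 CPM (counts scaled so that each library sums to 1000000), the 5 glial markers to 93.9 to 143 CPM and the 5 markers of neuroblasts and dividing cells to 47.7 to 75.3 CPM. All 5 markers of each of these lists were detected, as were 4 of 5 muscle, 4 of 5 photoreceptor, 3 of 5 hemocyte and 2 of 5 fat body markers. Detection of marker RNA does not by itself show that cells of a type were present, and no share of cells was measured. In such bulk RNA, fewer cells of a type and less RNA per cell cannot be told apart. Culture 26.8 stood apart, with 798 CPM of photoreceptor markers against 84.4 to 232 CPM in the others, 575 against 47.7 to 172 CPM of fat body markers, 102 against 14.4 to 30.4 CPM of muscle markers and 66.7 against 29.7 to 35.1 CPM of hemocyte markers.

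The RNA of nearly every standard subunit was present. Taking at least 10 counts in every library as detected, which is 0.295 to 0.472 CPM, 64 of the 80 genes were detected, against 53.4% of all genes and 63.6% of the protein-coding genes. The 59 genes without a paralog mark, called reference subunits here, were detected in all cases except ND-MNLL. Of the 21 genes with an L in their symbol, called L paralogs, 6 were detected, namely COX4L, COX5BL, COX7AL, COX7CL, ND-51L1 and ND-51L2. The other 15, ATPsynbetaL, ATPsynCF6L, ATPsynepsilonL, ATPsynGL, COX6AL, COX6AL2, COX6CL, COX7AL2, ND-20L, ND-24L, ND-49L, ND-B14.5AL, UQCR-11L, UQCR-14L and UQCR-6.4L, missed the limit in at least 1 culture.

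Together the 80 genes took 4172 ± 152 CPM (SD, n = 7), or 0.397% to 0.442% of a library, of which the L paralogs held 30.8 ± 4.84 CPM. The ATP synthase genes summed to 1585 ± 69.6 CPM, the complex I genes to 1304 ± 59.1 CPM, the complex III genes to 698 ± 27.4 CPM and the complex IV genes to 585 ± 30.2 CPM. These sums depend on how many genes a symbol prefix gathers and on gene length. Levels of different genes are therefore compared below as CPM per kb of exon, over the union of the annotated exons. The 80 genes are short, with a median of 799 exonic bases against 2262 for all detected protein-coding genes.

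Per length, the ATP synthase genes were the highest, and among detected genes those of complex I were the lowest. The median over the detected genes of a complex was 99.3 ± 2.12 CPM per kb for complex V (SD, n = 7), 60.6 ± 4.17 for complex IV, 56.4 ± 2.63 for complex III and 34.7 ± 2.15 for complex I. Complex V exceeded every other complex in 7 of 7 cultures, and complex I lay below the others in 7 of 7. The undetected genes were nearly all L paralogs. With them kept, the medians were 30.2 (complex I), 30.2 (III), 31.3 (IV) and 80.3 (V) CPM per kb. Complexes I, III and IV were then no longer apart, while complex V stayed above them. Among the detected reference subunits, complex I had a median of 36.5 CPM per kb and lay below the others in 7 of 7 cultures. Over all detected genes, L paralogs included, the ratio of complex V to complex I ranged from 2.52 to 3.15 between cultures. On these same genes, complexes III and IV were not separated. Complex IV was higher in 6 of the 7 cultures, all but culture 28.6, at a ratio of 0.996 to 1.22. Without the L paralogs, complex IV had a median of 76.2 CPM per kb and exceeded complex III in 7 of 7 cultures. The median over all 64 detected genes was 45.0 ± 2.86 CPM per kb, against 12.9 ± 0.437 for the detected protein-coding genes. Of the 64, 54 lay above the median of the detected protein-coding genes and 23 above their 90th percentile, which by its definition 10% of those genes exceed. This standing holds per length for genes that are short, since unscaled only 9 of the 64 lay over 100 CPM, against 2003 of the 9476 detected genes.

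**Figure D1:**
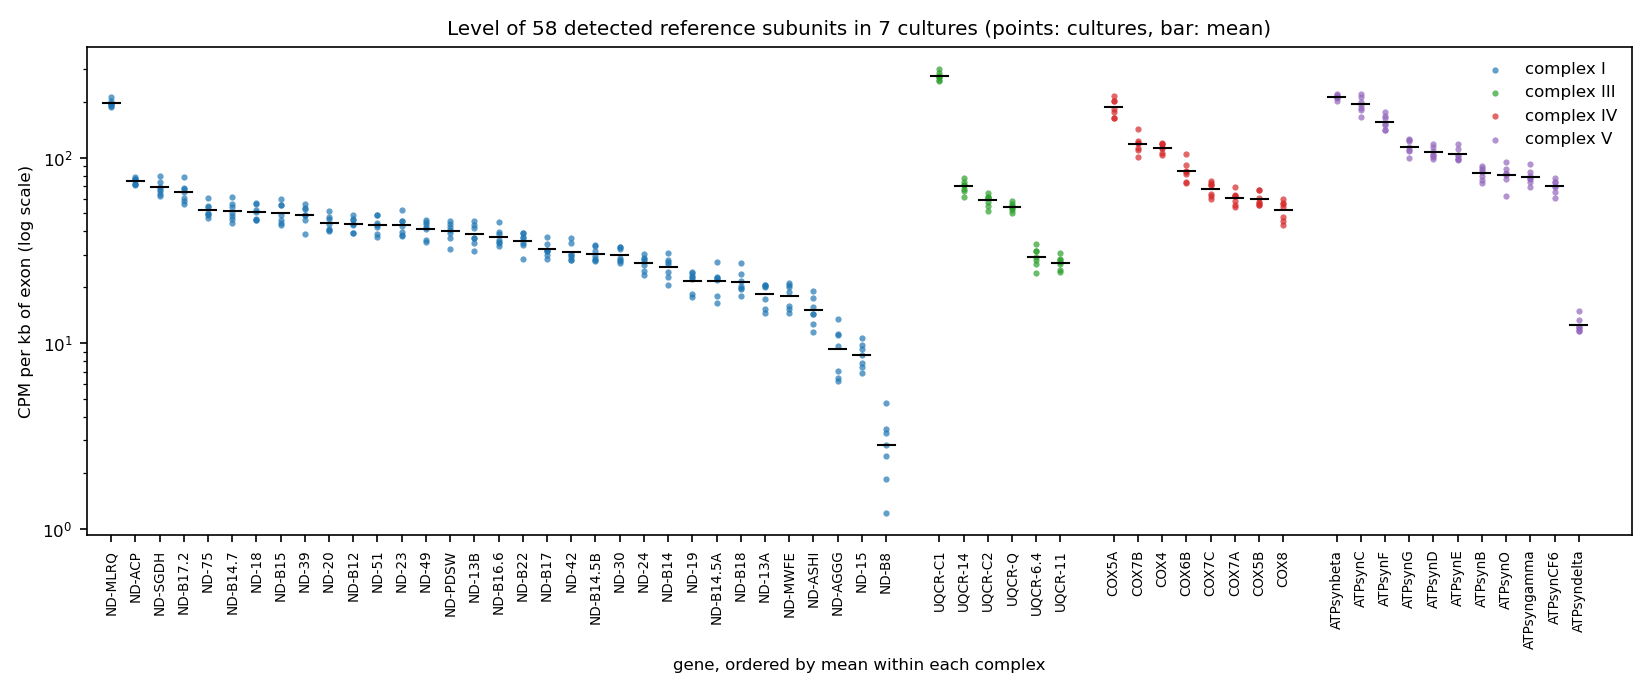
Level of each detected reference subunit in CPM per kb of exon (log axis), ordered within complexes I, III, IV and V, with a point for each of the 7 cultures and a bar at their mean. Most genes of complex V lie near or above 70.0 CPM per kb with ATPsyndelta far below, whereas complex I falls off from ND-MLRQ at 196 to ND-B8 at 2.83 CPM per kb.

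**Figure D2:**
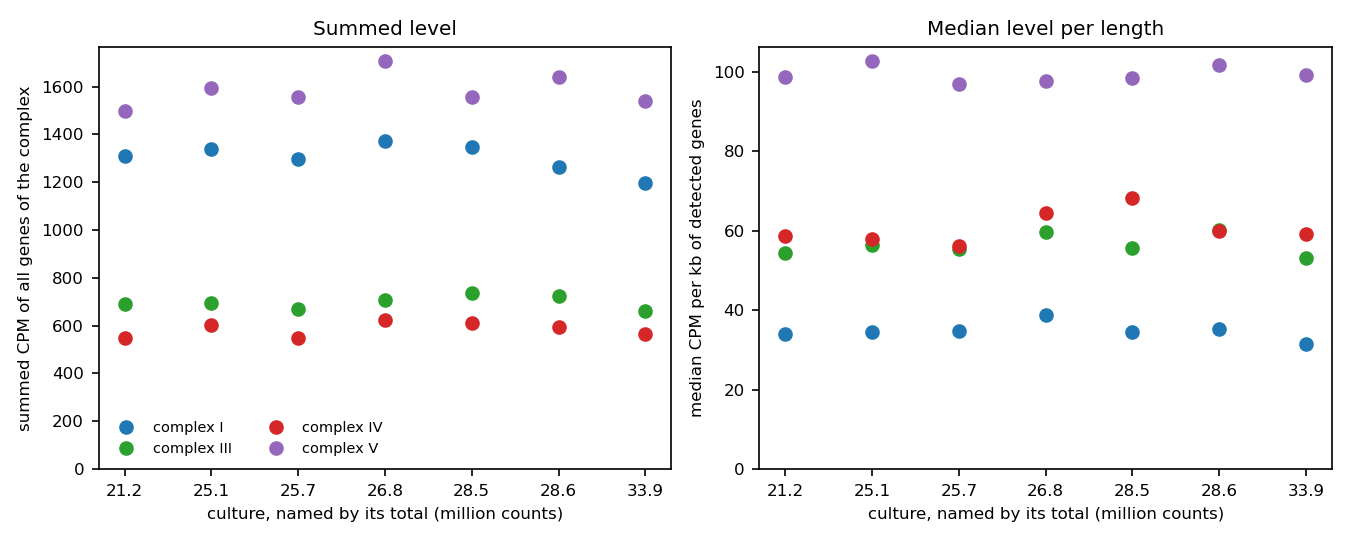
Summed CPM of all genes of a complex (left) and median CPM per kb of its detected genes (right) in each culture, named on the x axis by the leading digits of its total. Complex V is the highest in every culture in both panels, and complexes III and IV meet in the right panel in culture 28.6, at 60.2 and 59.9 CPM per kb.

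Complex I is the NADH dehydrogenase, with 7 nuclear core subunits that carry the flavin and the iron-sulfur clusters or form the ubiquinone site, and a large set of supernumerary subunits around them. The 7 core genes ND-75, ND-51, ND-49, ND-30, ND-24, ND-23 and ND-20 were all detected and lay close together, from 27.0 CPM per kb for ND-24 to 52.3 for ND-75, a span of 1.94-fold. The 26 detected supernumerary reference genes spanned 69.2-fold, from 2.83 CPM per kb for ND-B8 to 196 for ND-MLRQ. That span depends on ND-B8 and ND-MLRQ, since the next values were 8.62 for ND-15 and 74.6 for ND-ACP. ND-75, the largest iron-sulfur subunit, had a lowest, median and highest value of 47.3, 50.5 and 60.4 CPM per kb. ND-51, which binds NADH and the flavin, had 37.3, 43.3 and 49.3 CPM per kb, and ND-75 was higher in 6 of the 7 cultures. These 2 core genes thus overlapped between cultures.

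The highest gene with an ND- symbol was ND-MLRQ, at 187, 194 and 211 CPM per kb. Its mammalian homologue NDUFA4 was first described in complex I and is now counted as a subunit of complex IV. In every culture ND-MLRQ was 3.20 to 4.27 times as high as ND-75, so it stood clear of the core subunits by more than the spread. Next came ND-ACP, the mitochondrial acyl carrier protein, which also serves fatty acid synthesis, at 74.6 ± 2.65 CPM per kb (SD, n = 7), and ND-SGDH at 69.0 ± 6.26. ND-ACP and ND-SGDH overlapped between cultures.

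At the low end were ND-15 with 8.62 ± 1.34 CPM per kb and ND-B8 with 2.83 ± 1.15 (SD, n = 7). ND-B8 is the homologue of mammalian NDUFA2, a supernumerary subunit of the matrix arm. It had 15 to 74 counts per library, which were 0.559 CPM in culture 26.8, 1.29 CPM at the median and 2.18 CPM in culture 33.9. ND-MLRQ exceeded ND-B8 by 39.4 to 159 times per length. Of the 460 exonic bases of ND-B8 (chromosome 2L, 4454626 to 4455207 in BDGP6.54), 71 lie opposite exons of Gs1l.

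ND-MNLL, the homologue of mammalian NDUFB1, was the single reference subunit with 0 counts in all 7 libraries. Its gene (chromosome X, 7893053 to 7893798, minus strand) shares all of its 720 exonic bases with CG45089, which has the same start, end and strand and also had 0 counts. Among protein-coding genes, 315 share all exonic bases with another gene on the same strand, and 307 of them (97.5%) had 0 counts in every library, against 5.99% of the 9111 genes that share no exonic base. The 0 of ND-MNLL is thus shared by nearly all genes with this arrangement and is no measure of its RNA. Genes shared in full only with the opposite strand were counted more often, with 6 of 70 (8.57%) at 0. One of these is UQCR-14, which lies opposite CG32576 over all 523 exonic bases and had 32.0 to 40.5 CPM, while CG32576 had 5.69 to 9.87 CPM. In all, 33 of the 80 genes share some exonic bases with another gene, and 4, namely ND-MNLL, UQCR-14, COX5BL and COX6AL2, share over 50%. For comparison, 9111 of the 13845 protein-coding genes share none. The detected subunit genes that share none had a median of 47.4 CPM per kb.

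Complex III, the cytochrome bc1 complex, was led by 1 gene. UQCR-C1, a core subunit that faces the matrix, was the most abundant of the 80 genes per length, at 259, 273 and 299 CPM per kb (lowest, median and highest culture). UQCR-C2, the second core subunit, had 51.6, 60.6 and 64.0 CPM per kb. In the mammalian complex these 2 proteins are present in equal number, whereas the RNA of UQCR-C1 was 4.70 ± 0.267 times that of UQCR-C2 (SD, n = 7), between 4.44 and 5.08 in each culture. The ranges did not come near each other. UQCR-14, the homologue of mammalian UQCRB, reached 69.9 ± 5.29 CPM per kb and UQCR-Q 54.1 ± 2.62. The lowest were UQCR-6.4, with 29.3 ± 3.49, and UQCR-11, the hinge protein, with 27.1 ± 2.21, and these last overlapped. The catalytic subunits Cyt-c1 and RFeSP, whose symbols lie outside the naming rule, had 64.8 ± 6.02 and 76.7 ± 8.86 CPM per kb, and Cyt-c1 was 0.195 to 0.253 times UQCR-C1. UQCR-C1 thus stood above UQCR-C2 and Cyt-c1 in each of the 7 cultures.

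Complex IV, the cytochrome c oxidase, has its catalytic core encoded in mitochondrial DNA, and the nuclear subunits surround it. COX5A was the highest, at 163, 182 and 215 CPM per kb, followed by COX7B at 118 ± 12.9 and COX4 at 113 ± 6.35 (SD, n = 7). COX4 was 0.520 to 0.728 times COX5A and below it in 7 of 7 cultures, and COX5A was 2.84 to 3.76 times COX5B. COX8 was the lowest reference gene, with 51.9 ± 6.28 CPM per kb. The 8 reference genes of this complex spanned 3.59-fold, against 10.1-fold for complex III and 16.9-fold for complex V. The wider spans each depend on 1 gene. UQCR-C1 at 275 CPM per kb stood far above the next gene of complex III, UQCR-14 at 69.9. ATPsyndelta at 12.5 stood far below the next gene of complex V, ATPsynCF6 at 70.0. Of the subunits named outside the rule, levy (the subunit 6A gene) had 128 ± 14.0 and cype (the subunit 6C gene) 66.0 ± 9.27 CPM per kb, inside the span of the COX genes.

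Complex V was led by ATPsynbeta, the catalytic subunit of the F1 head, at 202, 212 and 220 CPM per kb. It was also the steadiest of the 80 genes, with a coefficient of variation of 2.61% between cultures. ATPsynC, which forms the ring in the membrane with many copies per enzyme, had 166, 191 and 219 CPM per kb and was not separated from ATPsynbeta, being higher in 2 of the 7 cultures. The ring subunit thus did not stand above the head subunit in RNA. ATPsynF, a membrane subunit, followed with 156 ± 13.5 CPM per kb (SD, n = 7). The alpha subunit gene blw, which lies outside the naming rule, had 116 ± 11.4 CPM per kb, and ATPsynbeta was 1.59 to 2.08 times as high in each culture, although both subunits alternate in equal number in the F1 head. The lowest were ATPsynCF6 with 70.0 ± 5.70 and ATPsyndelta with 12.5 ± 1.19 CPM per kb. ATPsyndelta belongs to the central stalk and lies on chromosome X from 10212970 to 10217393. Its annotated exons span 3817 bases, the longest of the 80 genes, and 1358 of these lie opposite CG2962, so its value per kb rests on this gene model. Its unscaled level was 44.4 to 57.0 CPM.

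The L paralogs lay below their reference subunit in every pair and every culture. The reference is itself one of the 80 genes, except that COX6AL and COX6AL2 are paired with levy, COX6CL with cype and ATPsynepsilonL with sun. All 21 pairs had the higher value in the reference in 7 of 7 cultures per length, and all 21 also without scaling by length. The L paralog held between 0% (ND-20L) and 13.4% (COX7AL) of the counts of its pair.

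COX7AL came closest to its reference. It had 97 to 244 counts per library and 7.80, 11.2 and 15.5 CPM per kb, against 54.4, 61.9 and 69.2 for COX7A, and COX7A was 4.02 to 7.93 times as high. The log2 ratio was 2.47 ± 0.42 (SD, n = 7). COX7A and COX7AL are neighbours on chromosome 3R, 2625 bases apart and on opposite strands. The ranges of both genes were well apart, yet COX7AL was the most abundant L paralog per length.

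ND-51 has a pair of paralogs that were both detected. ND-51L1 had 139 to 297 counts per library (2.58, 3.63 and 5.79 CPM per kb) and ND-51L2 95 to 261 counts (2.41, 4.03 and 6.04 CPM per kb). The 2 overlapped over their whole range. ND-51 was 7.17 to 16.7 times ND-51L1 and 7.44 to 17.5 times ND-51L2, with log2 ratios of 3.52 ± 0.48 and 3.33 ± 0.42 (SD, n = 7). Both paralogs have a single exon block on chromosome 2R, ND-51L1 within the span of Smurf and ND-51L2 within that of Trpm, in each case on the strand of the host gene. The hosts were abundant, at 75.7 ± 7.60 CPM per kb for Smurf and 62.5 ± 8.07 for Trpm, and the paralogs reached 0.0319 to 0.0718 and 0.0369 to 0.132 of them. The counts deposited do not separate reads of a host intron from reads of a gene inside it, and the part of such reads was not tested.

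Of the other detected paralogs, COX7CL had 20 to 72 counts per library and lay 7.45 to 41.0 times below COX7C, with a log2 ratio of 4.23 ± 0.80 (SD, n = 7). COX4L, with 18 to 99 counts, lay 21.3 to 138 times below COX4 (log2 ratio 5.36 ± 0.97). COX5BL, with 14 to 31 counts, lay 45.8 times below COX5B at the median and 88.4 times at most (log2 ratio 5.53 ± 0.48). COX7CL starts 281 bases after COX7C, and COX5BL 122 bases after COX5B, each on the same strand as its reference, and all 647 exonic bases of COX5BL lie opposite Trmt6. These low values are close to the limit of 10 counts. The culture with the highest CPM differed between them, being culture 21.2 for COX7CL, 26.8 for COX4L and 25.1 for COX5BL.

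Among the 15 paralogs that were not detected, 12 had 0 counts in at least 1 library. ATPsynepsilonL had 7 to 91 counts against 640 to 1265 for sun, and ATPsynbetaL 1 to 87 counts against 10599 to 16355 for ATPsynbeta. UQCR-11L had 2 to 35 counts and ATPsynGL 0 to 18. The totals over all 7 libraries were 33 counts each for ND-49L and ND-B14.5AL, 32 for UQCR-6.4L, 25 for COX7AL2, 20 for ATPsynCF6L, 18 for COX6CL, 17 for COX6AL2, 11 for COX6AL, 7 for ND-24L and 6 for UQCR-14L. ND-20L had no count in any library, and with a limit of 3 counts per library ND-20 was at least 243-fold higher per length. COX6AL2 shares 2098 of its 3130 exonic bases with Ir75d on the same strand, so its level is uncertain, and the part of this overlap in its counts was not tested. A count of 3 corresponds to 0.0885 to 0.142 CPM here, so RNA of the other paralogs below that level was not detectable at this depth. Of 9 testis markers, 3 were detected, namely mia (6.33 to 12.5 CPM), bam (47 to 178 counts per library) and can (27 to 77 counts). Among the others, dj was at 0 in every library and ProtA had at most 1 count. The 9 summed to 13.3 to 17.6 CPM.

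**Figure D3:**
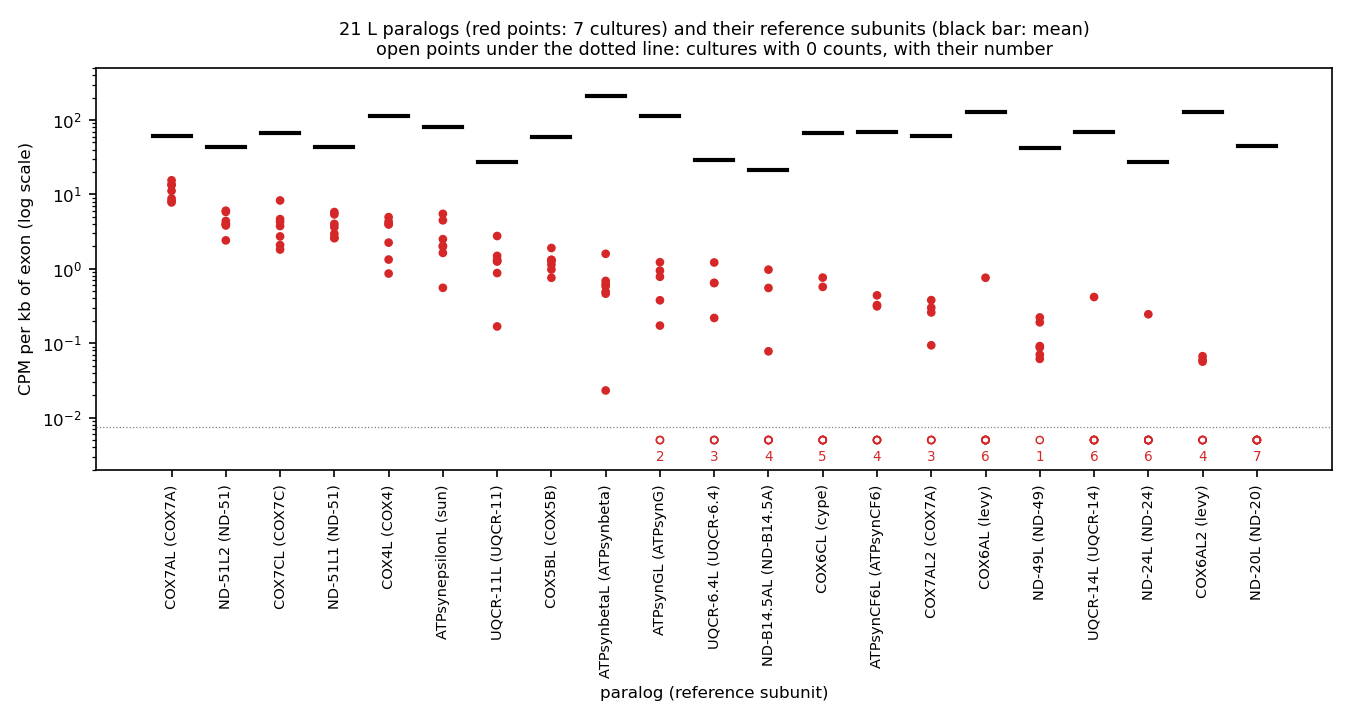
Level of the 21 L paralogs in CPM per kb of exon (log axis), a red point for each of the 7 cultures, with the mean of the reference subunit as a black bar. Every red point lies below its bar, COX7AL comes closest, and open points under the dotted line stand for cultures with 0 counts, all 7 of them for ND-20L.

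In their gene models, 8 of the 21 L paralogs have 1 exon block, against 1 of their 18 reference genes (ND-20). For 15 of the pairs the 2 genes lie on different chromosome arms. None of the 21 L paralogs is on chromosome X, whereas 12 of the 59 reference subunits are. Of the 18 reference genes of the pairs, 5 are on X, namely ND-20, ND-24, ND-B14.5A, UQCR-14 and sun. Of the L paralogs, 9 lie within the span of another gene. The same shares over all protein-coding genes are not given, so these counts only describe the gene models.

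The detected subunit genes had a lower median spread between cultures than detected genes as a whole, though not above 100 CPM and less plainly under 10 CPM. Their spread is given as edgeR's biological coefficient of variation (BCV), the square root of a gene's tagwise dispersion, which leaves out counting error. Its median was 0.124 over the 64 detected genes and 0.152 over all detected genes. The BCV falls with level in these data, so the genes were also read within bands of CPM. From 10 to 100 CPM, 46 subunit genes had a median of 0.124, against 0.139 for the 4418 genes of that band, and 35 of the 46 lay below the median of the band. Over 100 CPM, the median was 0.0988 for 9 subunit genes and 0.0991 for 2003 genes. Under 10 CPM it was 0.276 for 9 and 0.322 for 3055. In both of these bands, 5 of the 9 subunit genes lay below the median of the band. The lowest values were those of ATPsynbeta (0.0793), UQCR-C1 (0.0848) and ND-MLRQ (0.0907), and the highest those of COX4L (0.480), COX7CL (0.432) and ND-B8 (0.398), each of the latter under 3 CPM on average. For comparison, the median BCV was 0.104 over the 88 detected of 93 cytoplasmic ribosomal protein genes and 0.115 over the 18 detected of 32 V-ATPase genes. Per length, the ribosomal protein genes stood at a median of 515 ± 42.5 CPM per kb and the V-ATPase genes at 62.0 ± 5.49, the latter near complex IV.

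**Figure D4:**
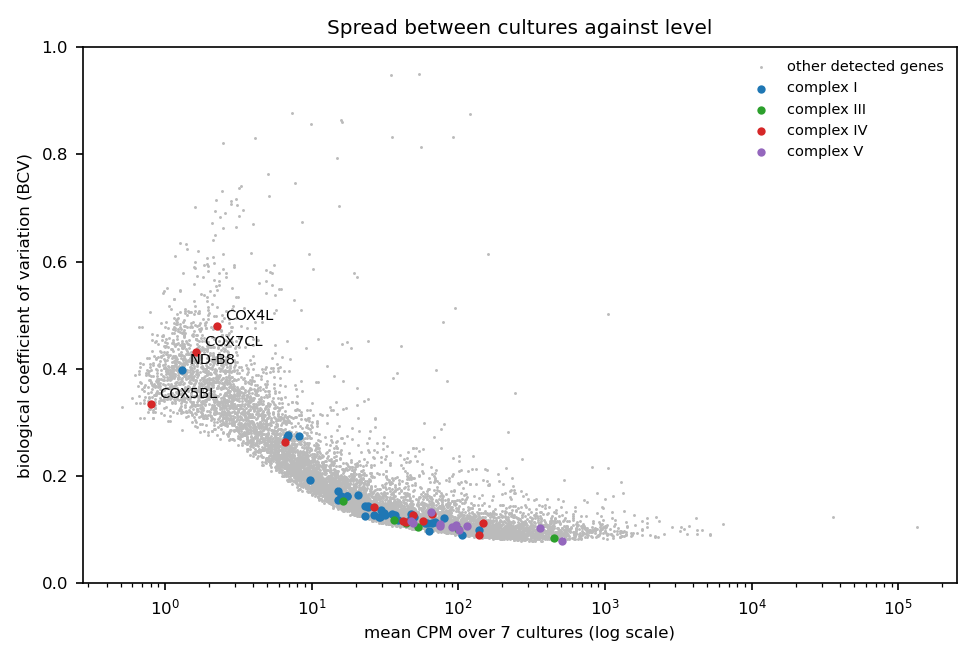
Biological coefficient of variation between the 7 cultures against mean CPM (log axis) for all detected genes (grey) and the detected subunit genes by complex (colours). The subunit genes follow the grey cloud, from a BCV of 0.480 for COX4L down to 0.0793 for ATPsynbeta, and the labelled COX4L, COX7CL, COX5BL and ND-B8 lie at the left, where counts are low.

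A culture counted as far from the other 6 where Dixon's ratio, the distance to its nearest neighbour over the whole range of the 7 values, passed the critical value. This held for 0 of the 64 detected genes, against 6.72% of all detected genes, and for none of the 4 complex sums. Culture 26.8 nevertheless had the highest summed level, 4415 CPM against 3967 to 4249.7 CPM in the others, and was the highest culture for 20 of the 64 genes. Culture 33.9 had the lowest sum and was the lowest culture for 17. The same counts over all detected genes are not given, so these are not read as a trait of the subunit genes. Over all detected genes, culture 26.8 was also the one most often far from the others, for 287 genes. With edgeR's TMM scaling culture 26.8 was still the highest, at 4343 CPM against 3925 to 4270.4 CPM, but the lowest was culture 21.2. The raised markers of photoreceptors, fat body, muscle and hemocytes in culture 26.8 are given above, and their part in its subunit level was not tested. Without this culture the complex V genes summed to 1564 CPM, the complex I genes to 1292 CPM, the complex III genes to 696 CPM and the complex IV genes to 579 CPM.

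The levels of most subunit genes went loosely with their joint level. For each gene, log2(CPM + 1) was correlated (Pearson) with the log2 of the summed CPM of the other subunit genes, and the median r was 0.39, with 49 of the 64 genes (76.6%) above 0. Over the 9412 other detected genes the median was 0.06 and 55.9% were positive. Each of these correlations rests on 7 libraries that share their totals, so they are given as a description. The median was 0.72 for complex V, 0.36 for complex IV, 0.35 for complex III and 0.34 for complex I. The closest were ND-B15 (0.93), ATPsynCF6 (0.93) and the paralog COX7AL (0.93), whereas ATPsynC had -0.01 and ND-B8 -0.53. Markers of several cell types also moved with this summed level or against it. The r of the 5 neuronal markers was below 0 for all 5 (-0.60 to -0.02), whereas it was above 0 for 5 of 5 glial markers (0.01 to 0.83), 3 of 3 detected hemocyte markers (0.25 to 0.77), 4 of 4 detected muscle markers (0.26 to 0.62) and 4 of 4 detected photoreceptor markers (0.48 to 0.55). It was also above 0 for 2 of 2 detected fat body markers and 3 of 3 yolk protein genes. The signs were mixed for neuroblasts and dividing cells (4 of 5 above 0, -0.14 to 0.43) and for testis (2 of 3, -0.13 to 0.67). Culture 26.8 had the highest sums of several of these lists and of the subunit genes, and the r of the markers without it is not given. The summed levels of these markers are given above and, for yolk proteins, below. The part of these markers in the co-variation of the subunit genes was not tested. Without culture 26.8 the median over the 64 subunit genes was 0.30.

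Partner genes outside the naming rule gave further context. Complex II, the succinate dehydrogenase, had SdhB at 159 ± 11.7, SdhC at 73.6 ± 6.84, SdhA at 69.6 ± 4.68 and SdhD at 49.1 ± 4.39 CPM per kb (SD, n = 7), all within the range of the other complexes. The somatic cytochrome c gene Cyt-c-p had 217 ± 7.32 CPM per kb, close to ATPsynbeta. Its neighbour Cyt-c-d, known from the male germ line and from apoptosis, had 0 to 54 counts per library. The complex V subunit gene sun had 80.8 ± 11.6 and the complex III gene ox 23.9 ± 3.28 CPM per kb, while the paralogs SdhAL, with 23 to 78 counts, and SdhBL, with 0 to 17, lay as low as the L paralogs above.

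The 5 measurable of 6 listed assembly factors and the 5 regulators lay below the median of the subunit genes. Cox17, a copper chaperone of complex IV assembly that is not on that list and was added after its value was seen, lay above it with 106 ± 19.8 CPM per kb (SD, n = 7). Of the listed factors, Scox had 17.4 ± 1.94, sicily 9.77 ± 1.63, CIA30 8.98 ± 0.875, Surf1 8.47 ± 1.33 and ECSIT 7.54 ± 1.01 CPM per kb. Ccdc56 had 0 counts, and all of its exonic bases are shared with mtTFB1 on the same strand, the arrangement described for ND-MNLL. Of the regulators, TFAM, which packages mitochondrial DNA, had 31.0 ± 2.62, srl (the PGC-1 homologue) 25.3 ± 2.03, Ets97D 9.52 ± 1.68, ewg 9.08 ± 0.735 and mtTFB2 5.08 ± 0.986 CPM per kb (SD, n = 7). The 38 genes of mitochondrial DNA listed in the table had 0 counts in every library, so the mitochondrially encoded subunits of complexes I, III, IV and V could not be set beside their nuclear partners.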

How the data were processed

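The authors deposited raw counts of reads per gene from featureCounts for 7 control cultures (totals of 21178515 to 33891136 counts), with no normalization and no pooling. The labels name the dm6 build. For the table used, aligner, strand setting and annotation were “not given in the sources used here”, and the labels (total RNA with ribosomal depletion) and the methods (a stranded mRNA kit) differ. 8 further columns of per-sample values match no sample used here and were not used. CPM used library totals. Gene models came from BDGP6.54 of Ensembl release 115, which matched 17626 of 17753 identifiers, and reads of overlapping genes may be shared or lost. Ratios of paralogs carry a pseudocount of 0.1 CPM per kb within each culture. The BCV came from edgeR with TMM and an intercept only, over genes with at least 10 counts in every library, and its tagwise values are drawn towards the trend over all genes.

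Genes named are the highest 3 and lowest 2 of each complex per length, all paralogs, undetected genes, the highest and lowest 3 by BCV and the lists of partner genes. Members and lists were chosen with earlier results of these data known. The paralogs were paired by symbol, except those set against levy, cype and sun, whose symbols do not match. ND-15, UQCR-Q, COX8 and ratios set between subunits were chosen after values had been seen. So were the CPM bands, the counts of overlapping genes and the genes named with correlations. No promoter or protein sequences were analysed here. Columns were matched to the condition only. P-values were not computed, since there is 1 condition, and SDs measure the spread between these samples. Alternatives were TMM, DESeq2 size factors, totals without Arc1, other count minimums, lengths and pseudocounts, and each library left out. R 4.3.3, edgeR 4.0.16, DESeq2 1.42.0, Python 3.11.15, numpy 2.4.6 and pandas 2.3.3 were used.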

Additional observations from a re-analysis of the deposited data

Results flagged for a closer look

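In 6 of 107 measures 1 culture lay far from the other 6, and in each of these 6 measures it was culture 26.8. The 107 measures did not include every gene named in the text. About 1 group in 20 is flagged by chance, which for 107 measures would be 5.35, and these measures share libraries. None of the 6 was a subunit gene, a complex sum or a paralog ratio. The complex I assembly factor CIA30 stood at 11.3 CPM there (8.52 to 9.63 in the others). The summed markers stood at 66.7 CPM for hemocytes (29.7 to 35.1), 102 CPM for muscle (14.4 to 30.4), 575 CPM for fat body (47.7 to 172), 798 CPM for photoreceptors (84.4 to 232) and 742 CPM for yolk proteins (24.6 to 239). Some single genes outside these measures also passed the critical value, among them Cox11 and Cyt-c1L, both with a Dixon's ratio of 0.663. For Cox11 the far value was again in culture 26.8, at 9.98 CPM. For Cyt-c1L it was in another culture, at 7.65 CPM, while culture 26.8 had 5.14 CPM.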

How the results depend on the processing

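Of 188 values under alternatives, 170 stayed within the spread between cultures (for counts, within 1.5 times), 18 moved and 0 reversed in direction. Counts, levels and the BCV are never below 0 and so cannot reverse, which leaves only log2 ratios and correlations able to do so. With totals that leave out Arc1, which took 11.5% to 15.0% of the counts, every level rose together, to medians of 40.1 (complex I), 65.2 (III), 70.1 (IV) and 114.8 (V) CPM per kb and sums of 1507, 807, 677 and 1832 CPM. With undetected genes kept, the medians were 30.2 (I), 30.2 (III), 31.3 (IV) and 80.3 (V) CPM per kb, so complexes I, III and IV were no longer apart while complex V stayed above them. Chosen after seeing the data, leaving out the L paralogs gave 76.2 CPM per kb for complex IV, and adding subunits with other symbols gave 59.1 for complex III. With TMM, 1 gene had 1 culture far from the others, and with DESeq2 size factors also 1, in both ND-B16.6 in culture 25.1 (57.1 CPM against 42.8 to 48.9 with TMM). Among paralogs, the log2 ratio was 4.78 for COX5B over COX5BL with a pseudocount of 1, and 5.22 for COX7C over COX7CL without length. Detected genes numbered 58 to 67 under other count minimums and 64 to 65 with a culture left out. The median BCV ranged from 0.118 to 0.131 with a culture left out, and the median r was 0.28 with TMM, where that of the other genes was -0.02. The planned promoter motif shares were not run, and pairs were not checked by protein identity. No paired analysis was possible because the 7 cultures form a single group. Depth limits the paralogs under 10 counts, and the value per kb depends on the gene models.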

Other observations

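Genes with related names but outside the naming rule were looked at after values had been seen. Cox17, whose symbol differs from the rule only in its case, is given above, and Cox10 and Cox11, which serve haem and copper insertion, had 18.5 ± 2.86 and 8.14 ± 1.44 CPM per kb (SD, n = 7). Cyt-c1L, a paralog of Cyt-c1, had 116 to 219 counts per library and 4.27 ± 0.781 CPM per kb, close to ND-51L1 and ND-51L2, while SdhCL had 0 to 24 counts.

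Exon length and level per length were unrelated over the 58 detected reference subunits (Spearman's rho = -0.06 across genes, which are not independent replicates).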
